A study of Mus musculus with 8 samples.

Results

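Late-rising regions were accessible regions of male germ cell chromatin that were called at every timepoint, stayed under a set limit of gain 18 h after retinoic acid (RA) and had become much taller by 120 h. They were 108 of the 15536 regions with an ATAC-seq peak in all 8 libraries, which in turn were drawn from 87144 regions called in any library. In ATAC-seq a transposase inserts sequencing adapters into open DNA, and tags pile up where chromatin is accessible. Overlapping peaks (1 bp or more) of the 8 libraries were joined into regions, and the height of a region was the log2 of the highest summit value (tag coverage at the top of a peak) of each library. Heights were centred on the median of each library over the 15536 regions, and the 2 libraries of a timepoint were averaged. A region was kept where 120 h minus 0 h was 1.5 or more and 18 h minus 0 h was below 1 on this log2 scale. Of the 15536 regions, 218 (1.40%) had the rise and 108 (0.695%) also met the limit at 18 h. The 0, 18 and 120 h heights therefore chose the regions, and every value of these changes is a description without a test. The 48 h heights were not part of this choice, although a peak in both 48 h libraries was required for a region to be considered.

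Mice of all 4 groups carried the PIWIL2-eGFP transgene, in which the *Piwil2* promoter drives eGFP in germ cells from before birth until the early spermatid. All mice, the 0 h mice included, were fed 100 mg/kg WIN 18,446, which blocks RA synthesis, daily for 7 days from 2 dpp. At 9 dpp the 18, 48 and 120 h groups received 200 µg RA in DMSO and the 0 h group was collected with no injection. The 0 h group thus differs from the others by the injection as well as by RA. The later groups were also older at collection, by about the hours since RA, and further from the last WIN 18,446 dose. Age, time off WIN 18,446 and time since RA cannot be told apart here. Each timepoint had 2 libraries of cells sorted for eGFP, with 1 mouse for every library. The sample labels give 100000 cells and a background of C57BL/6 with 129s4/SvJae, whereas the methods give 50000 cells and C57BL/6 x SJL.

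RA is the signal that commits undifferentiated spermatogonia to differentiation. After a pulse of RA the cells pass through a fixed series of type A divisions, become type B spermatogonia and go on to meiosis, and the study takes the 0 h cells as undifferentiated and the 120 h cells as type B. Accessible regions at gene starts are often open in many cell types, whereas regions in introns and between genes more often act as enhancers whose opening follows the transcription factors a cell contains. In the germ line such factors include the DMRT family, of which DMRT1 and DMRTB1 act in spermatogonia around the choice between mitosis and meiosis.

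Peaks at the starts of marker genes were found in every library for germ cells and also for some somatic cells. Of 6 germ cell markers between 5 and 6 had a peak within 1000 bp of their start in each library. Their summed summit values as deposited were 2254 and 2728 in the 0 h libraries and 1826 and 1419 in the 120 h libraries. Of the 7 Sertoli cell markers 6 had one in both 0 h libraries and 2 or 3 in the later ones, with summed summit values as deposited of 615 and 802 in the 0 h libraries and 246 and 120 in the 120 h libraries. Of the markers of Leydig cells, endothelium, macrophages and spermatids, none had such a peak in either 120 h library. In the 0 h libraries 1 and 1 of 6 Leydig cell markers had one, and 1 and 1 of 3 for endothelium. For macrophages these were 2 and 1 of 4, and for spermatids 0 and 1 of 5. The 2 peritubular myoid markers each had a peak in every library but 120 h replicate 2, where 1 of them did. Their summed values were 354 and 408 before RA and 240 and 86 after 120 h. The somatic markers were thus lower at 120 h than at 0 h as deposited, as were the germ cell markers. The part of somatic cells in the rise was not tested. Without centring, the median region of the 15536 was lower than at 0 h by a log2 change of -1.23 at 18 h, -1.36 at 48 h and -0.75 at 120 h, and all centred changes below are relative to this shift.

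The sequences of 6 of the largest rises are shown, which lie away from gene starts as most of the regions do. Most of the 6 carry 1 or both of 2 short words that were more frequent in the group than in all regions. The windows of *Gpt2* and *Golm1*, also among the largest rises but not shown, hold neither word. Each is 300 bp of the forward strand of GRCm38 (mm10) around the higher 120 h summit. Capitals mark, on either strand, the core TGTATC, to which DMRT proteins bind. They also mark, on either strand, the word TACAGT, which was found by counting and is tied to no factor here. They are given in order of the rise and leave out windows that touch an untranslated region.
Mxi1 intron, chr19:53338891-53339190: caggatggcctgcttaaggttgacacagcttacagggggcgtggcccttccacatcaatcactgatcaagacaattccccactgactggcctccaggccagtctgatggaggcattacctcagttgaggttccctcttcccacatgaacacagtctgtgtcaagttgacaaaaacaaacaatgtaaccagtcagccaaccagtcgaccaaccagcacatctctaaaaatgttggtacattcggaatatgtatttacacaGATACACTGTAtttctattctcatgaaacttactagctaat
Greb1 intron, chr12:16760331-16760630: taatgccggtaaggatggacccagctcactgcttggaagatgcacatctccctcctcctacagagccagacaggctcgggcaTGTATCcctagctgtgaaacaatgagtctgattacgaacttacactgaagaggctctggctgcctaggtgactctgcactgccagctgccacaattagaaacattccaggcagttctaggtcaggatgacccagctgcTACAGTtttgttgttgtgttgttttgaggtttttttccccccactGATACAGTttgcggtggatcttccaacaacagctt
Intergenic region, no assigned gene, chr19:24630155-24630454: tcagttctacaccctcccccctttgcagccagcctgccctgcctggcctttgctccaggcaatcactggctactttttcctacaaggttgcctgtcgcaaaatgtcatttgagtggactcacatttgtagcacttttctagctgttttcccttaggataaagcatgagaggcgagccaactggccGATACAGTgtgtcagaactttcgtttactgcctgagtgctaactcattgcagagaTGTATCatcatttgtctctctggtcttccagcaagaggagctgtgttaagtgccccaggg
Intergenic region, no assigned gene, chr2:30749643-30749942: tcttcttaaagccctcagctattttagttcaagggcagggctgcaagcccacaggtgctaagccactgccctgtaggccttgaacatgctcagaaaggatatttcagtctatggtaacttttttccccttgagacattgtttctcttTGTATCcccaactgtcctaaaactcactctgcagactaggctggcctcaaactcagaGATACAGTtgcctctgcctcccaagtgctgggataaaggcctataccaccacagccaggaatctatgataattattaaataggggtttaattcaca
Igsf3 intron, chr3:101388971-101389270: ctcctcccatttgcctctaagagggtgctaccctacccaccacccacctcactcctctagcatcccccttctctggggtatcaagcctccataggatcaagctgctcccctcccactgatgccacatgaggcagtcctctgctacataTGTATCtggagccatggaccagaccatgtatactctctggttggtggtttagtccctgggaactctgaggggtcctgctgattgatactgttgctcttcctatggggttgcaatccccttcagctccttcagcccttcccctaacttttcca
Aebp2 intron, chr6:140630283-140630582: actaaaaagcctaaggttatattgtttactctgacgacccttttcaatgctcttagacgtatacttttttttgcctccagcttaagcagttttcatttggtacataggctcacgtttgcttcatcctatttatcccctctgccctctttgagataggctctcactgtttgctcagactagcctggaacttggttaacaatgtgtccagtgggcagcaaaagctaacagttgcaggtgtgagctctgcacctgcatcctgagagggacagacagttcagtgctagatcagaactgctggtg
The first 4 windows held both words. In *Greb1* and in both intergenic windows the words overlapped as GATACAGT, sharing the letters TACA. The *Igsf3* window held the DMRT core alone and the *Aebp2* window held neither.

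As deposited, the median summit value of the 108 regions was 106.5 and 101 before RA, 61 and 67 after 18 h, 73 and 80.5 after 48 h and 271.5 and 166.5 after 120 h. The median of all 15536 regions was 224 and 270 before RA, 91 and 116 after 18 h, 86 and 102 after 48 h and 166 and 106 after 120 h. The late-rising regions were thus low peaks before RA and tall ones at 120 h, while the general level of the libraries moved the other way. Their median lay at the 8.81st and 5.61st percentile of all regions in the 0 h libraries and at the 71.7th and 67.4th in the 120 h libraries. In sorted bulk cells, a site that opens in more of the cells and one that opens wider in each cell cannot be told apart.

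**Figure D1:**
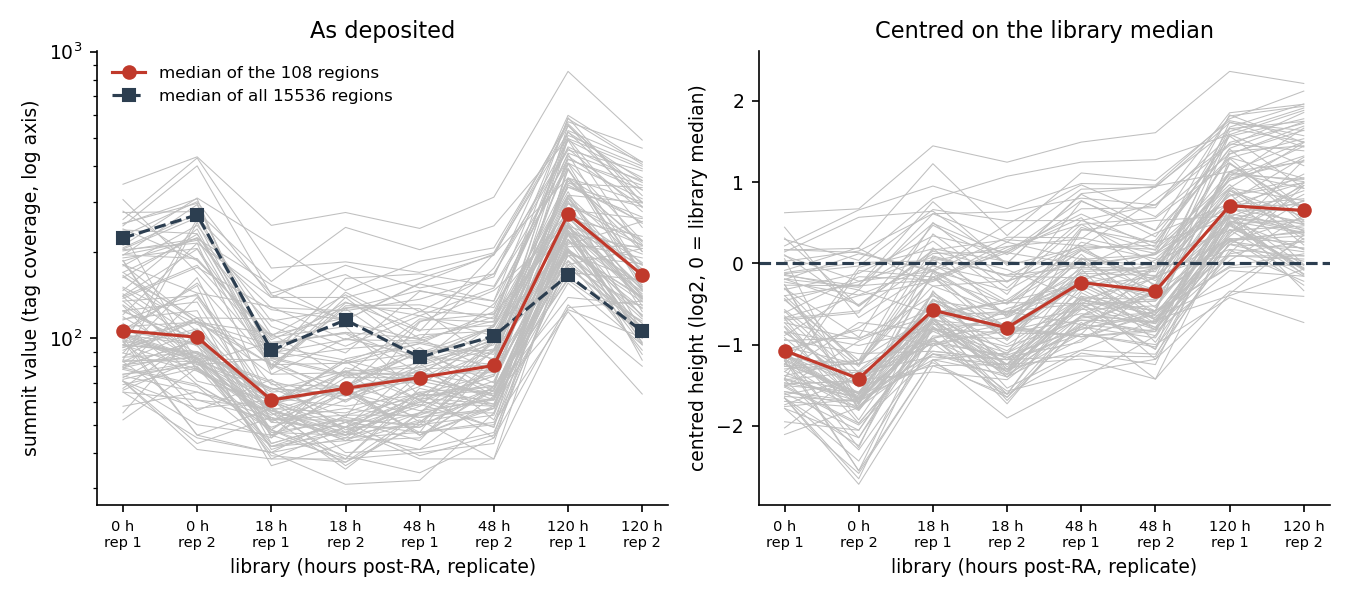
Summit values as deposited (left, log axis) and centred log2 heights (right, 0 is the library median) of the 108 late-rising regions in each of the 8 libraries. Each thin line joins the values of 1 region, red marks their median and dark dashes the median of all 15536 regions. The red median lies below the dark one from 0 h to 48 h and above it in both 120 h libraries.

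On the centred scale the median change from 0 h was 0.53 at 18 h, 0.84 at 48 h and 1.73 at 120 h, beside 0.03, 0.03 and 0.14 for all regions. The rise at 120 h ran from 1.501 to 3.10. In 85 of the 108 regions the mean height rose at every step from 0 to 18, 48 and 120 h, as it did in 13.4% of all regions, and the rule favours this order. Without centring, the median of the regions changed by -0.72 at 18 h, -0.55 at 48 h and 0.84 at 120 h. Both 120 h libraries stood above both 0 h libraries in all 108 regions after centring, as they did in 42.3% of all regions. On the values as deposited they did so in 87 regions, beside 2.14% of all regions. Both counts come from the contrast that chose the regions. The peaks narrowed from median widths of 570.5 and 510.5 bp before RA to 366.5 and 373 bp after 18 h, and were 591 and 544 bp wide after 120 h. From 0 h to 120 h their median log2 change in width was 0.10, beside -0.32 for all regions.

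The largest rise was in an intron of *Mxi1*, which encodes a MAX partner that opposes MYC. Its summit values were 71 and 41 before RA, 38 and 49 after 18 h, 59 and 49 after 48 h and 407 and 152 after 120 h, a centred rise of 3.10. Both 120 h values stood apart from the 6 others. The centred change was 1.39 ± 0.33 (SE) from 0 h to 48 h and 1.71 ± 0.33 from 48 h to 120 h. An intron of *Greb1*, an oestrogen-responsive gene, had values of 125 and 94, 56 and 67, 90 and 91, and 525 and 299 in the same order, a rise of 2.76. The 120 h libraries were again the only high ones. The intergenic region at chr19:24630083-24630574 had 71 and 50, 46 and 38, 40 and 43, and 266 and 135 (rise 2.56), and the one at chr2:30749478-30750026 had 83 and 86, 61 and 51, 65 and 68, and 388 and 167 (rise 2.48). Neither has a gene within the 10 kb that the peak table allows.

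The region in *Gpt2*, which encodes a mitochondrial alanine aminotransferase, had its summit in an untranslated exon. Its values were 166 and 106 before RA, 47 and 52 after 18 h, 50 and 85 after 48 h and 555 and 286 after 120 h, a rise of 2.48. It was the one of the 9 largest whose centred height was not above 0 h at 18 h, with a change of -0.16. *Igsf3*, which encodes an immunoglobulin superfamily membrane protein, rose by 2.46 in an intron, from 83 and 55 to 265 and 151 between 0 h and 120 h. *Aebp2*, a cofactor of Polycomb repressive complex 2, rose by 2.36 in an intron, from 135 and 84 to 343 and 255. *Golm1*, which encodes a Golgi membrane protein, rose by 2.26 in an intron, from 104 and 156 to 363 and 299. In each of these 4 regions both 120 h libraries were above all 6 others as deposited.

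The region upstream of *Fgf6* (-4534 bp from the start), a fibroblast growth factor gene, had 71 and 57 before RA, 61 and 40 after 18 h, 41 and 63 after 48 h and 202 and 134 after 120 h. Its rise was 2.26. Of these 9 regions, 6 had their summit in an intron or an untranslated exon, 3 lay between genes and none was at a gene start.

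**Figure D2:**
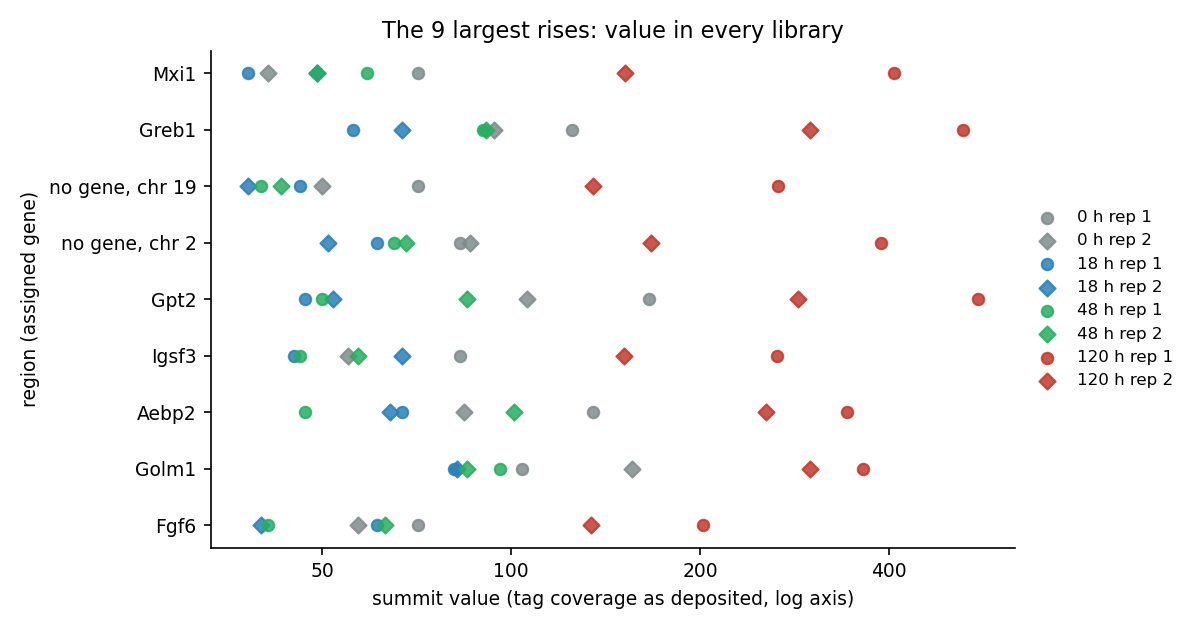
Summit values as deposited (log axis) of the 9 regions with the largest rise, in every library. Colour gives the timepoint and shape the replicate. In all 9 regions both 120 h libraries lie to the right of the 6 other libraries, and of the 120 h libraries replicate 1 lies to the right of replicate 2.

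A gene start was reached by the rise at *Ctcfl*, which encodes the germ line paralogue of CTCF. This region, which also covers the start of the antisense gene *Ctcflos* and has no CpG island, had 83 and 107 before RA, 41 and 49 after 18 h, 82 and 52 after 48 h and 213 and 256 after 120 h, a rise of 2.20. At the start of *Crem*, an activator of genes expressed after meiosis, the values were 252 and 296, 85 and 145, 107 and 111, and 531 and 413, a rise of 1.67. Both regions were tallest at 120 h in both libraries, and at *Crem* the centred change by 48 h was 0.07 ± 0.22. An intron of *Dnah8* (listed as *Dnahc8*), which encodes a dynein heavy chain of the sperm tail, had 65 and 61, 57 and 44, 45 and 68, and 160 and 105, a rise of 1.93.

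*Crem* and *Dnah8* were the 2 genes that the late-rising regions shared with any of 9 gene lists. Both belong to the haploid spermatid list, of whose 60 genes 36 had a region among the 15536, in 48 regions with a median rise of 0.27. None of the 86 regions of 57 meiotic prophase genes met the rule, and 26 of them were higher and 4 lower at 120 h than at 0 h by limma, beside 23.0% higher and 15.8% lower of all regions. None of the 26 regions of 18 genes of differentiating spermatogonia met it either, although 1 of them had the size of rise, and neither did the 30 regions of 20 genes of piRNA and transposon silencing. The lists of undifferentiated spermatogonia (43 regions), the retinoid pathway (25), Sertoli cells (8) and peritubular, endothelial and macrophage cells (9) also held none, and the Leydig cell list had no region called in all 8 libraries. Since 0.695% of all regions met the rule, a list of this size would hold few in any case.

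The 48 h libraries show how much of the rise was in place by then. They were compared by limma over all 15536 regions with adjustment over all of them, and the comparisons share the 0, 18 or 120 h libraries with the rule, which picks regions that are low at 0 h and high at 120 h. Of the 108 regions, 40 were higher at 48 h than at 0 h and none was lower, beside 3.26% of all regions higher and 1.51% lower. The calls ran from a log2 change of 0.79 to 1.96. Both 48 h libraries stood above both 0 h libraries in 90 regions, beside 28.0% of all regions. The call rests on few libraries, and the number called fell without either 48 h library or without 0 h replicate 2. The median change of the 108 was then 0.81 without 48 h replicate 1, 0.88 without 48 h replicate 2 and 0.69 without 0 h replicate 2. For all regions it was 0.03, 0.04 and 0.04 in the same order. Without centring 0 of the 108 were higher and 28 lower, beside 0.328% of all regions higher and 93.3% lower.

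From 48 h to 120 h, 76 of the 108 regions rose and none fell by limma, beside 9.47% of all regions that rose and 7.45% that fell. The rises that were called ran from 0.68 to 2.11. Both 120 h libraries stood above both 48 h libraries in 103 regions, beside 36.4% of all regions. The calls rest on few libraries, and the number called fell without any 1 of the 48 h or 120 h libraries. Without 48 h replicate 2 the median change of the 108 was 0.97, beside 0.05 for all regions. It was 1.03 without 48 h replicate 1, beside 0.06 for all regions. Leaving out 120 h replicate 1 gave 1.03, beside 0.09, and leaving out 120 h replicate 2 gave 0.97, beside 0.04. Of the 108 regions 21 were called at both steps, 19 at the first alone, 55 at the second alone and 13 at neither.

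Between 18 h and 48 h no region was called by limma, of the 108 or of all 15536. At an unadjusted p under 0.05, 24 of the 108 were higher and none lower, beside 428 higher and 489 lower of all regions. The median change of the late-rising regions over this interval was 0.33, beside 0.01 for all. The mean at 48 h lay above that at 18 h in 96 of the 108, beside 51.2% of all regions. By 48 h the middle region had reached 44.4% of its rise at 120 h, with quartiles of 34.1% and 57.7%.

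**Figure D3:**
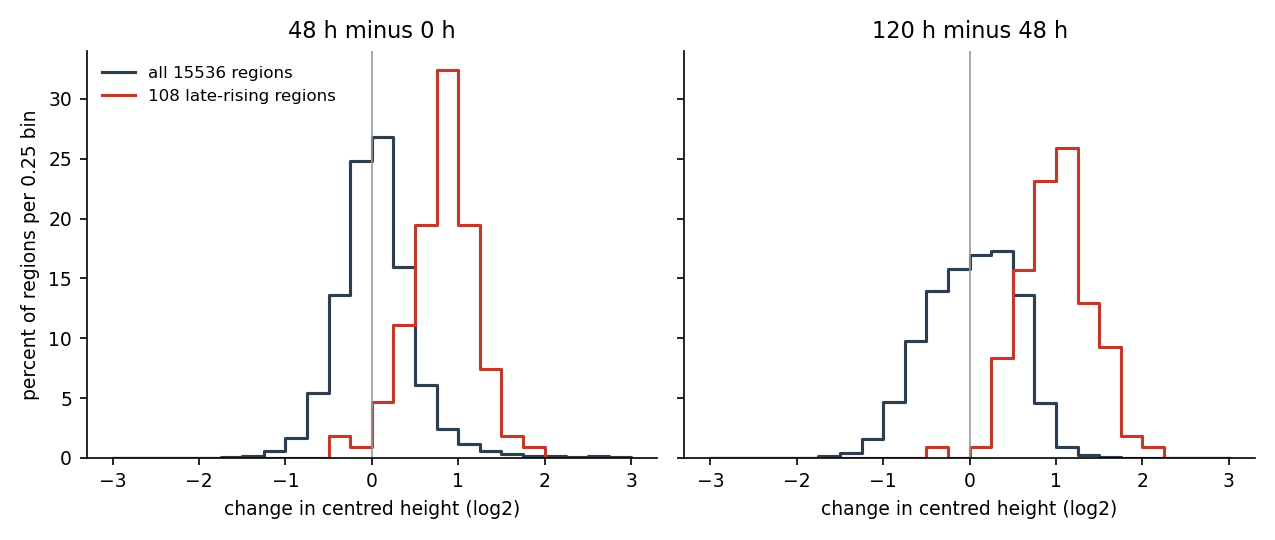
Change in centred log2 height from 0 h to 48 h (left) and from 48 h to 120 h (right), as the percent of regions in bins of 0.25, for the 108 late-rising regions (red) and all 15536 regions (dark). Of the 108 late-rising regions 105 lie above 0 in the left panel and 107 in the right one, around medians of 0.84 and 1.02. Of all regions 53.8% and 53.7% lie above 0.

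Within the group the share of the rise present at 48 h differed from region to region, from -27.4% to 121%. Among the regions with the largest change by 48 h were those in introns of *Atl1*, *Frmd5* and *Mbp* and downstream of *Slco1b2*. In the intron of *Atl1*, which encodes an endoplasmic reticulum GTPase, the values were 86 and 89 before RA, 67 and 53 after 18 h, 114 and 147 after 48 h and 249 and 84 after 120 h. The 120 h values lay on either side of both 48 h values, and the change from 0 h to 48 h was 1.96 ± 0.29 (SE) against -0.34 ± 0.29 from 48 h to 120 h. *Frmd5*, which encodes a FERM domain protein, had 138 and 177, 126 and 116, 156 and 197, and 363 and 252. Its change was 1.56 ± 0.21 by 48 h and 0.28 ± 0.21 after that. At *Mbp*, which encodes myelin basic protein, the changes were 1.47 ± 0.23 and 0.75 ± 0.23, and at *Slco1b2*, a liver anion transporter gene, 1.47 ± 0.34 and 0.70 ± 0.34. These regions were picked by their change at the first step, which also leaves less of the rise for the second, so the values describe them and are not tests.

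The 5 regions with the lowest change by 48 h were those of *Wdr45b*, *Rpl41*, *Rps27*, *Crem* and *Zfp957*. *Rpl41* and *Rps27* encode ribosomal proteins, and these 2 regions lie at the gene start, as that of *Crem* does, although the peak table also assigns them to *Zc3h10* and *Pa2g4* and to *Rab13* and *Nup210l*. At *Rpl41* the values were 251 and 307 before RA, 75 and 100 after 18 h, 87 and 81 after 48 h and 511 and 399 after 120 h. The 18 h and 48 h libraries were low together and both 120 h libraries were the highest. Its change was -0.33 ± 0.21 from 0 h to 48 h and 1.93 ± 0.21 from 48 h to 120 h. At *Rps27* the changes were -0.02 ± 0.23 and 1.60 ± 0.23, and at *Crem* 0.07 ± 0.22 and 1.60 ± 0.22. In the intron of *Wdr45b*, an autophagy gene, they were -0.41 ± 0.26 and 1.91 ± 0.26, and in a coding exon of the zinc finger gene *Zfp957* 0.08 ± 0.26 and 1.44 ± 0.26. Since these regions were picked for a low change by 48 h among regions with a large rise by 120 h, a large second step follows from the choice.

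The size of the early change differed with position and base composition, given here without a test. The 24 regions within 1000 bp of a gene start by the distances of the peak table were of near average height at 0 h (median centred height -0.33) and rose by a median of 0.29, 0.70 and 1.63 at 18, 48 and 120 h. The 84 others were low at 0 h (median -1.30) and rose by 0.58, 0.92 and 1.79. Between 48 and 120 h the medians were alike, at 1.04 and 0.98. Among all regions, those with 10 or more CpG in the 300 bp window had risen by a median of 0.26 at 120 h and those with fewer had fallen by a median of -0.22. The 81 late-rising regions with under 10 CpG had a median rise of 1.80. That all of them rose is set by the rule, whatever their CpG count. Of the 4803 regions with so few CpG, 38.9% rose at all from 0 h to 120 h.

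The rule was also applied to the libraries of each replicate number alone, and the heights in the libraries of the other number, which were not used beyond the need for a peak in all 8 libraries, were read. Replicate 1 chose 103 regions, and in replicate 2 their median change from 0 h to 120 h was 1.61, beside 0.19 for all regions. Of these 102 rose and 60 rose by 1.5 or more, where 1.96% of all regions did. Replicate 2 chose 175 regions, whose median change in replicate 1 was 1.29, beside 0.09 for all. Of these 174 rose and 62 rose by 1.5 or more, where 1.44% of all regions did. Each side of this split has 1 library per timepoint, from the same libraries that the rule used, so these values are a description and not a test.

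The rule was met in each replicate alone by 49 regions, which are among the 108 by construction, since the rule averages the 2 replicates. Those with the largest values of the smaller of the 2 rises included *Greb1* (2.50 and 3.02 in replicates 1 and 2), the intergenic regions on chromosome 19 (2.34 and 2.78) and chromosome 2 (2.66 and 2.31), and *Golm1* (2.24 and 2.29). Others were *Ncf4*, which encodes a subunit of the phagocyte NADPH oxidase (2.25 and 2.22), *Gpt2* (2.17 and 2.78), a region on chromosome 10 with no assigned gene (2.14 and 2.19), *Cnih4*, a cornichon family gene (2.03 and 2.03), and *Slco1b2* (1.97 and 2.38). The *Mxi1* region was not among the 49, with rises of 2.95 and 3.24, because its 18 h value in replicate 2 was past the limit.

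The late-rising regions lay mostly away from gene starts. By GENCODE vM21 the 120 h summit was within 1000 bp of a transcript start in 26 of 108 (24.1%), beside 62.9% of all regions. It was in an intron in 46 (42.6%, beside 17.6%), between genes in 31 (28.7%, beside 16.8%), in a coding exon in 2 and in an untranslated exon in 3. With under 10 CpG in the 300 bp window, 54.3% were in an intron, beside 46.2% of all such regions. Between genes the order was then reversed, with 34.6%, beside 40.1%. A CpG island was annotated in 27 (25%, beside 58.6%). Among the 26 at a gene start, 23 had a CpG island, and those of *Ctcfl*, *Mxra7* and *Trim2* did not. The regions were spread over the autosomes with 11 on chromosome 7, 10 on chromosome 8 and none on chromosome 16, and 2 lay on the X chromosome, at the start of *Zfx* and in an intron of *Elf4*.

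No late-rising region had another within 50 kb, where 0.972% of all regions had a late-rising region that near. The 128 genes the peak table assigns to 87 of them were each named once. The nearest other region called in all 8 libraries within 50 kb, present for 78 of them, had a median change of 0.07 from 0 h to 120 h, beside 0.17 for the nearest neighbours of all regions. A region found in both 120 h libraries and in no earlier pair lay within 50 kb of 12%, beside 13.2% of all regions.

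Where a gene had a late-rising region away from its start, the start changed about as much as starts in general. There were 52 such genes with a start region called in all 8 libraries, and these start regions had a median change of 0.34 from 0 h to 120 h, beside 0.32 for all start regions. The start of *Mxi1* changed by -0.23, with 210 and 256 before RA and 127 and 89 after 120 h, while its intron rose by 3.10. The starts of *Gpt2* (0.02), *Aebp2* (0.30), *Igsf3* (-0.44) and *Golm1* (-0.21) also changed little beside their inner regions.

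**Figure D4:**
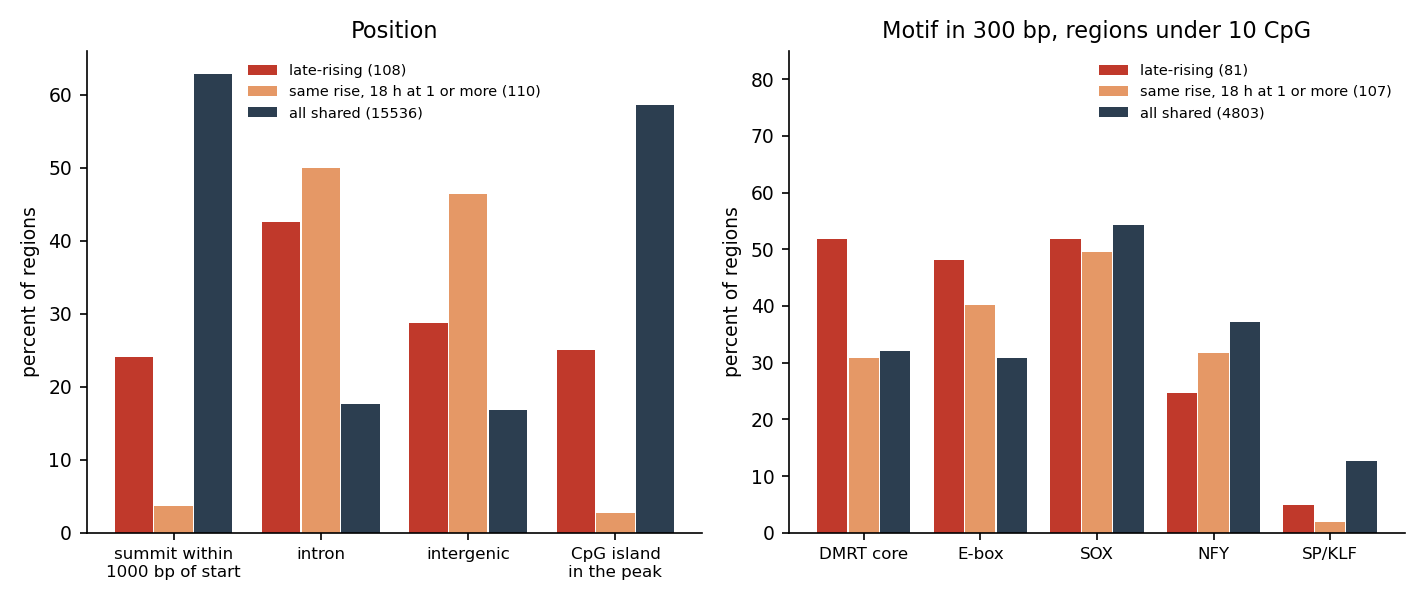
Left, percent of regions with the 120 h summit within 1000 bp of a transcript start, in an intron or between genes, and with a CpG island. Right, percent of regions with under 10 CpG that hold each motif within 300 bp around the 120 h summit. Red is the late-rising regions, orange the regions with the same rise but an 18 h change of 1 or more, and dark all shared regions. The late-rising regions have fewer gene starts than all regions and more than the orange group, and hold the DMRT core most often of the 3.

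The windows of 300 bp were poor in GC and CpG. Their median GC content was 50.3%, beside 61.0% for all regions, and their median CpG count 4, beside 19. The median share of bases that the reference marks as repeats was 8%, beside 2.67%, and with under 10 CpG it was 10.7%, beside 8.33%. Motifs were searched on both strands in these windows for 38 patterns, and a match is only a match of letters. The DMRT core TGTATC was present in 45 of 108 (41.7%), beside 12.1% of all regions. Among windows with under 10 CpG the shares were 51.9% of 81 and 32.1% of 4803. A second core of the same family, ACATTGT, was present in 20.4%, beside 10.1% of all regions, but in 27.2% and 30.3% of the windows with under 10 CpG. In the 4803 regions, those with the core changed by a median of -0.11 from 0 h to 120 h and those without it by -0.27, both below 0. The E-box CAGGTG was present in 37.0%, beside 23.3% of all regions, and GGGCGG, the SP and KLF core of CpG-rich starts, in 20.4%, beside 53.4%. CCAAT, bound by NFY, was present in 25.9% and 38.5%, and the CRE palindrome TGACGTCA, bound by CREM and related factors, in none of the 108 and 2.86% of all. Neither the CTCF core nor the RA receptor repeats DR2 and DR5 had a match in the 108 windows, and they matched in few of all windows.

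Every word of 6 letters was also counted, 2080 in all with both strands joined. Ranked by the difference in share between late-rising and all regions with under 10 CpG, CACAGC came first (54.3% and 31.4%), followed by TACAGT (38.3% and 15.5%), the DMRT core and the E-box CAGGTG (48.1% and 30.7%). These words were picked by their counts, so their shares are no independent support. One or both of TACAGT and TGTATC lay in 62 of the 108 windows (57.4%), beside 17.8% of all, and both in 19. With under 10 CpG one or both lay in 67.9%, beside 40.5% of all. They overlapped as GATACAGT in 9 windows (8.33%), beside 0.933% of all. Of the 40 regions that were higher at 48 h than at 0 h, 24 held TGTATC, beside 45 of all 108, and 4 were at a gene start by GENCODE, beside 26 of all 108. These differences were not tested.

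The nearest group in behaviour were the 110 regions with a rise of 1.5 or more at 120 h whose 18 h change was 1 or more, which the rule sets aside. They had a median change of 1.57 at 18 h, 1.94 at 48 h and 2.21 at 120 h, with 0.10 from 48 h to 120 h, where the late-rising regions gained 1.02. That difference follows from the limit at 18 h. Not set by the rule, 3.64% of the 110 were at a gene start and 2.73% had a CpG island, beside 24.1% and 25% of the late-rising regions. With under 10 CpG, the DMRT core was present in 30.8% of 107 of these and in 51.9% of 81 late-rising regions. One or both of TGTATC and TACAGT were present in 38.3% and 67.9%, and GATACAGT in 6.54% and 11.1%. Whatever the CpG count, the E-box CAGGTG was present in 39.1% of the 110 and in 37.0% of the late-rising regions. With under 10 CpG these E-box shares were 40.2% and 48.1%. None of these differences was tested.

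The limits of the rule cut through a continuous range. Just inside the limit on the rise were *Wdr45b* (1.501), *Olfr524* (1.501) and a region on chromosome 10 (1.503), and just outside it a region on chromosome 11 (1.496), *Gnb5* (1.494) and *Zfp536* (1.492). Just inside the limit at 18 h were *Igsf3* (0.96), *Mxi1* (0.94) and the same region on chromosome 10 (0.93), and just outside it a region on chromosome 12 (1.00), *Kcnip3* (1.01) and a region near *Dhx29* (1.03). The region on chromosome 12 rose by 2.65 at 120 h, from 70 and 73 before RA to 321 and 182.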

How the data were processed

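Reads were aligned by the authors to mm10 with BWA 0.7.12, duplicate, unpaired and mitochondrial tags were removed, and libraries were reduced to a common number of tags. Tags were extended to 200 bp and summed in bins of 32 nt, and peaks were called per library with MACS2 2.1.0 at a p cutoff of 1e-07 with no control (tool versions from the submitters' processing notes). The deposited peak table holds the signal, as tag coverage, at each summit and its mean over the peak. Tags per region are not in this table, so no counting interval was given, and the number of libraries limits the precision. Counts of CpG islands and genes assigned within 10 kb are other columns of the deposited table. Extension without a shift of the cut sites spreads the signal around each summit.

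Regions, members and lists were chosen with earlier results of these data known. Regions were merged and chosen in Python 3.11.15 with pandas 2.3.3 and compared by limma 3.58.1 under R 4.3.3 (linear fits with eBayes, 4 groups, Benjamini-Hochberg adjustment, threshold 0.05), and the rule and the fit were tested on simulated data. Coordinates are 1-based. Named were the 10 largest rises, the neighbours of each limit, the genes of a list, the 5 largest and 5 smallest changes at 48 h, and the first 10 regions passing in each replicate. Some of these are not reported here. *Trim2*, *Mxra7*, *Zfx*, *Elf4* and the start regions were named after their values were seen. In the main fit replicate numbers only name libraries. The p-values rest on the spread between the 2 mice of a timepoint, pooled over the 4 timepoints and moderated by eBayes over all regions. Alternatives were another scaling or measure of height, higher values only, other limits, windows and comparison regions, other fits and each library left out. Browser tracks were not used.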

Additional observations from a re-analysis of the deposited data

How the results depend on the processing

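The number of late-rising regions, 108, was 28 without centring (6 of them among the 108), 69 with quantile normalization, 52 with the mean signal of the peak, 38 where the summit value had to be at least 50 in all 8 libraries, 720 and 25 with a rise of 1 and 2 as the limit, 218 with no limit at 18 h, and 175 by replicate 2 alone. It ran from 90 to 154 with single libraries left out. The median change in the held-out replicate was 1.11 for regions chosen in replicate 1 and 2.07 for those chosen in replicate 2 without centring, where the latter were 9 regions. For 48 h against 0 h, 40 higher regions became 0 higher and 28 lower without centring, 21 with quantile normalization and 20 of 63 at the higher minimum, and ran from 7 to 46 with single libraries left out. For 120 h against 48 h, 76 became 25 and 32 of 63 under the same 2 settings, and ran from 0 to 82. For 48 h against 18 h the count was 0 under every alternative run. Some of these settings also hold fewer regions or fewer libraries, and the cause of the changes was not tested.

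With the replicate number as a block, the counts were 51, 79 and 0 for 48 h against 0 h, 120 h against 48 h and 48 h against 18 h. Of all 15536 regions 579, 1632 and 0 were then higher. Deviations of same-numbered libraries correlated between -0.22 and 0.25. The value was 0.18 for 0 and 18 h, 0.25 for 0 and 120 h and 0.23 for 18 and 120 h. These values cannot tell whether same-numbered mice are paired. Members minus all regions, the share within 1000 bp of a gene start was -35.5 percentage points, -24.5 against regions of like 0 h height and -3.56 with under 10 CpG. The share with the SP and KLF core was -33.0, -22.4 and -7.72 under the same settings, and that with the DMRT core 29.6 and, with under 10 CpG, 19.7. The removal of GC classes, the comparison with under 10 CpG and the 0 h summits were added after seeing the data, and the difference in the E-box share ran from 9.94 to 18.5 around 13.8 percentage points.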
